A study of Mus musculus with 32 samples.

Results

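Liver expression of 39 genes for drug-metabolizing enzymes and for the receptors that regulate them was measured in male C57BL/6J mice (C57BL/6 in the labels) given corticosterone (Cort) or vehicle (Veh) on 2 diets. The genes were chosen by name from a table of 47643 genes, with earlier results of these data known. They comprise 23 cytochromes P450 of 9 subfamilies, 7 glutathione S-transferases, 5 UDP-glucuronosyltransferases, the P450 electron donor Por, and the receptors Nr1i2, Nr1i3 and Ahr. All 39 were found in the table by symbol, and 36 had enough counts to be tested. The other 3 (Cyp1a1, Cyp2b9 and Cyp2b13) were near 0 in these livers and are given as counts.

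Mice were 10 weeks old and received the treatments for 7 days. Cort was dissolved in ethanol and given in the drinking water, and Veh mice drank 1% ethanol, so ethanol was common to all groups. The normal-protein diet (NPD) drew 20% of its energy from protein and the high-protein diet (HPD) 60%, in both as whey protein, with corn starch reduced to keep the HPD isocaloric. All mice were fasted for 4 h before tissue was taken, and the labels do not say whether livers of 1 number in different groups came from 1 cohort. Each diet had a Veh and a Cort group, with 4 livers in each of the 4 groups. Veh HPD replicate 4 stood apart from the other livers and was left out, so that the values below rest on 15 livers, with 3 in the Veh HPD group.

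Cytochromes P450 are heme enzymes of the endoplasmic reticulum that oxidize drugs, steroids and dietary chemicals, and NADPH-cytochrome P450 reductase (Por) passes them the electrons they need. Glutathione S-transferases and UDP-glucuronosyltransferases then attach glutathione or glucuronic acid, which makes the products easier to excrete. In hepatocytes many of these genes are induced by ligand-activated receptors: the constitutive androstane receptor (Nr1i3) is best known for Cyp2b genes, the pregnane X receptor (Nr1i2) for Cyp3a genes and the aryl hydrocarbon receptor (Ahr) for Cyp1a genes. Glucocorticoids act through a related nuclear receptor, encoded by Nr3c1.

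Libraries were made from the 3′ ends of transcripts, so a count does not grow with gene length, and levels are given as CPM, which scales counts to the depth of the library, here with TMM factors. Total counts of the liver libraries ranged from 8933307 to 17447524, and the 39 genes together held between 1.05% and 1.49% of the counts of the 15 libraries used. A summed level of 9 hepatocyte genes, with none at 0 in any library used, lay between 75842 and 256436 CPM. The highest of these sums was in Cort HPD replicate 1, which also had the lowest TMM factor (0.754), and called values that this library moves are given with and without it. Veh HPD replicate 4 had a factor of 1.45 when it was included. In it, 17 of the 39 genes were lower and 5 higher than in every other liver library. Of 12 glucocorticoid target genes, 2 rose and 1 fell with Cort on the NPD (median log2 0.11), and 1 rose and 2 fell on the HPD (median -0.24), so most of this list was not called. Fkbp5, a gene induced by glucocorticoids, was higher with Cort on the NPD (log2 fold change ± SE of 2.23 ± 0.48, adjusted p = 0.00939) and not called on the HPD (1.15 ± 0.51, adjusted p = 0.188). Without Veh HPD replicate 2 it was called there as well (1.92, adjusted p = 0.0318). Tat, another glucocorticoid target of liver, fell with Cort on the NPD (-1.25 ± 0.38, adjusted p = 0.0459), a call lost in 14 of 24 alternatives (11 of 15 with 1 library left out), and was not called on the HPD (-0.46 ± 0.40, adjusted p = 0.525). The receptor gene Nr3c1 lay at 44.1 ± 5.83 CPM (mean ± SD) in Veh NPD, 44 ± 7.12 in Veh HPD, 35.4 ± 5.38 in Cort NPD and 41.1 ± 6.99 in Cort HPD.

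The sequences just upstream of 6 genes are shown first, chosen to show close relatives that differ in level and genes called with Cort, and not by rank. RefSeq gave the 250 bases before the annotated start for 35 of the 39 genes (build GRCm38.p6). Cyp2c54, Cyp2d22, Ahr and Gsta4 had no entry. The first set holds the Cyp2b genes, neighbours on chromosome 7 of which Cyp2b10 was abundant with Cort and the others were nearly absent: Cyp2b10 at chr7:25897408-25897657, Cyp2b9 at chr7:26173159-26173408 and Cyp2b13 at chr7:26061245-26061494, all on the plus strand. The second set holds Cyp2c39 (chr19:39510572-39510821, plus strand) and Cyp3a11 (chr5:145879855-145880104, minus strand), called with Cort on both diets, and Ugt2b35 (chr5:87000610-87000859, plus strand), the gene whose Cort response differed between diets. Capitals mark matches, on either strand, to any of the 5 motifs described after the sequences.
Cyp2b10: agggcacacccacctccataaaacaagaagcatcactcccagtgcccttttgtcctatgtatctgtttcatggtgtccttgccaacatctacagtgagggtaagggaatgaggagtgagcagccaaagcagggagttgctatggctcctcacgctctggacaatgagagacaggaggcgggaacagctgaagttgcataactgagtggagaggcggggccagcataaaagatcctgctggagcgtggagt
Cyp2b9: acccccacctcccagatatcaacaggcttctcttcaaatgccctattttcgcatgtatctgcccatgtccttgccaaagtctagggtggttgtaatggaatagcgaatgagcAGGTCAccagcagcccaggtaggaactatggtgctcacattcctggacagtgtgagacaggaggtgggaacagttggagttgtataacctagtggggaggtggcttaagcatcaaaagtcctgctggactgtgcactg
Cyp2b13: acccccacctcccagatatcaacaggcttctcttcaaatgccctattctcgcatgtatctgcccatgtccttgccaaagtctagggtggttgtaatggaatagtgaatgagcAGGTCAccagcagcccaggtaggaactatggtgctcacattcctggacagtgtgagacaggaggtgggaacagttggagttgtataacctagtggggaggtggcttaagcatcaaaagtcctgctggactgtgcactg
Cyp2c39: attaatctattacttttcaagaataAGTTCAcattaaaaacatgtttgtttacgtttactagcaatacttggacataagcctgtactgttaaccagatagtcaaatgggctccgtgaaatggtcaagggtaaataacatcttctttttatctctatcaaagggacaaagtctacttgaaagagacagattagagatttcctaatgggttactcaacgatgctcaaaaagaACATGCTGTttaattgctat
Cyp3a11: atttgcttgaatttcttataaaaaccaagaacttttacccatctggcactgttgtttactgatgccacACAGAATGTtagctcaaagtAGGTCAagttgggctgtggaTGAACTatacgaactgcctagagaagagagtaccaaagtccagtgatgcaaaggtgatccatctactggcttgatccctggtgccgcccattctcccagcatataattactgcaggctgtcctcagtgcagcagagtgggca
Ugt2b35: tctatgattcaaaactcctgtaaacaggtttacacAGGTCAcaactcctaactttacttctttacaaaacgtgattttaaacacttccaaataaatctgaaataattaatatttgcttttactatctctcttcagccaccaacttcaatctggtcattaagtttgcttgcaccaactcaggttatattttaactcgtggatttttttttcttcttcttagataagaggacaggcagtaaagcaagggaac

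The upstream sequences of Cyp2b9 and Cyp2b13 were identical in 248 of 250 alignment columns (99.2%), while Cyp2b10 shared 186 of 262 columns (71%) with each of them. The motifs searched were AGGTCA and AGTTCA, hexamers bound by nuclear receptors, ACANNNTGT, the core letters of glucocorticoid receptor elements, TNGCGTG, the core bound by the aryl hydrocarbon receptor, and TGACNNNGC, the core of the antioxidant response element. AGGTCA was found upstream of 10 of the 35 genes (28.6%), against 14% of the 32817 windows of all genes. The 10 were Cyp2b9, Cyp2b13, Cyp2c29, Cyp2c70, Cyp2f2, Cyp3a11, Cyp3a25, Ugt2b5, Ugt2b35 and Ugt2b36. AGTTCA was found for Cyp2c39, Cyp2c50 and Cyp3a11 (8.57%, against 11.9% of all windows), and ACANNNTGT for Cyp2c39, Cyp2d10 and Cyp3a11 (8.57%, against 5.84%). TNGCGTG was found only for Gsta2 among the 35 (2.86%, against 4.1%) and TGACNNNGC only for Gsta3 (2.86%, against 10.2%). The window of Cyp2b10 held none of these letters, and a match is a description of the sequence and not of binding.

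Cort changed the level of many of these genes on both diets, and the changes ran in both directions. On the NPD 10 of the 36 tested genes rose and 4 fell, and on the HPD 13 rose and 3 fell, by edgeR's quasi-likelihood test with Benjamini-Hochberg adjustment over all genes tested. Log2 fold changes are given ± their standard error, and levels as the mean ± SD of a group. Of all 12391 genes tested, 12.6% were called on the NPD and 9.89% on the HPD, while 38.9% and 44.4% of the members tested were. The members were chosen with earlier results of these data known, so these shares are a description only. By direction, 6.84% of all genes were called higher and 5.79% lower on the NPD, and 4.75% higher and 5.14% lower on the HPD. The groups did not overlap for 16 members on the NPD and 23 on the HPD, against 18.5% and 21.2% of all genes. The comparisons of Cort with Veh on the NPD and on the HPD share no library, and 11 members were called in both, all of them in 1 direction: 9 rose (Cyp2b10, Cyp2c29, Cyp2c39, Cyp3a11, Cyp3a13, Cyp3a25, Gstm2, Gstm3 and Nr1i3) and 2 fell (Cyp2e1 and Gsta4). The median log2 fold change of the members was 0.02 on the NPD and 0.19 on the HPD, beside medians of all genes of -0.01 and 0.00. Scaling by library totals in place of TMM factors moved the median of all genes by -0.24 on the HPD, and the members then split into 11 higher and 8 lower there. Of all 12391 genes, 275 were then higher and 1272 lower. With Veh HPD replicate 4 included, 9 members were called on the NPD and 12 on the HPD, beside 998 and 1114 of all 12282 genes then tested.

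**Figure D1:**
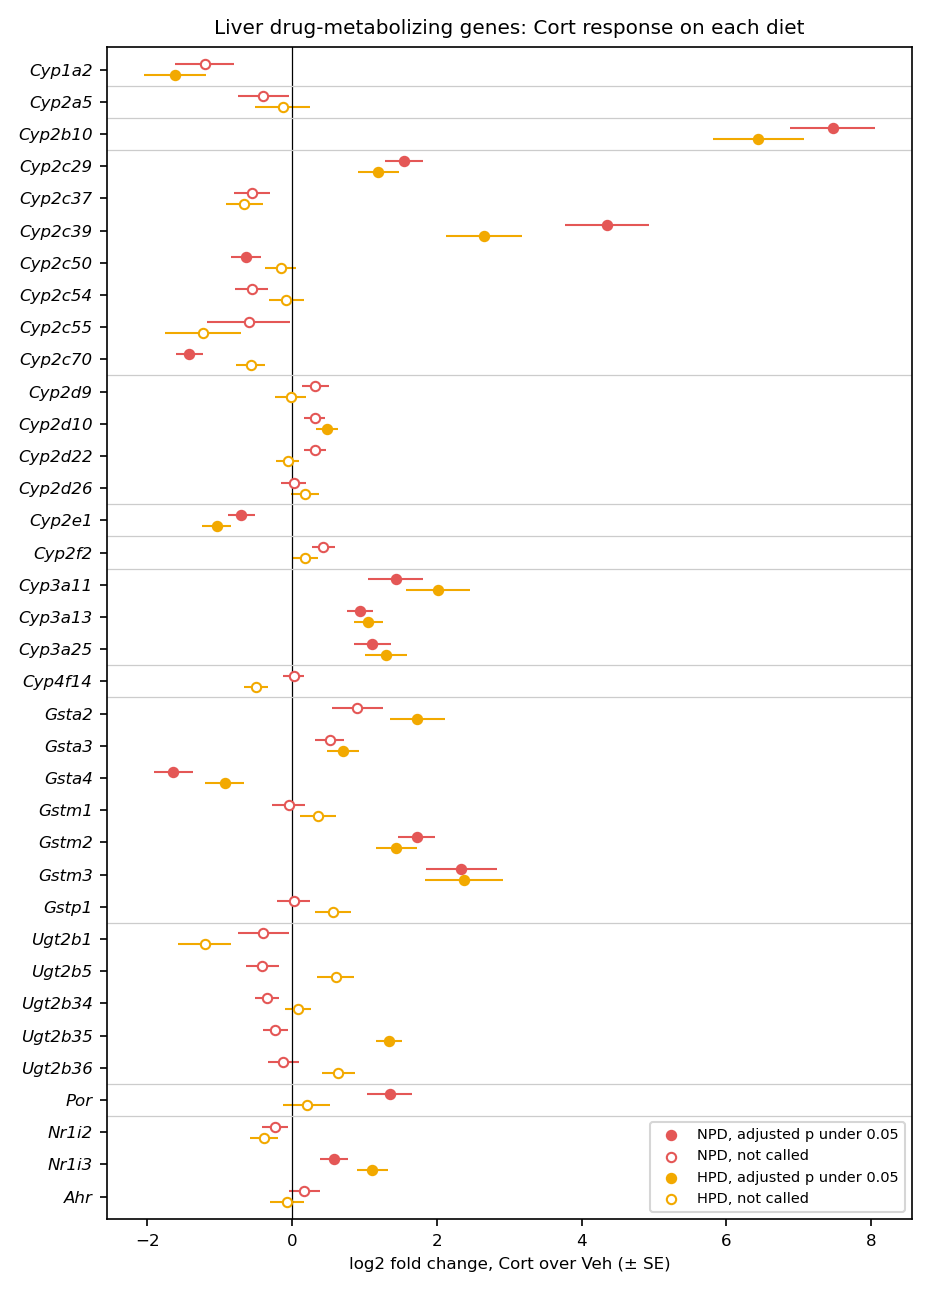
Log2 fold change of Cort over Veh on the x axis for the 36 tested genes, ordered by family (grey lines), with 4 livers per group except 3 in Veh HPD. Points are fitted values, bars are the standard error, and filled points had an adjusted p under 0.05. Cyp2b10 stands farthest to the right on both diets, while Gsta4, Cyp2e1 and Cyp2c70 lie on the left on the NPD.

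Among the P450s, 6 of the 20 tested rose and 3 fell on the NPD, and 7 rose and 2 fell on the HPD. The largest fold change of any member was that of Cyp2b10, a classical target of Nr1i3. Cyp2b10 lay at 1.42, 0.106, 1.99 and 4.39 CPM in the Veh NPD livers, at 2.45, 7.42 and 3.24 in Veh HPD, at 315, 343, 510 and 281 in Cort NPD and at 352, 439, 355 and 338 in Cort HPD. The lowest Cort liver (281 CPM) was far above the highest Veh liver (7.42 CPM). The rise was 177-fold on the NPD (log2 7.47 ± 0.59, adjusted p = 5.0e-06) and 86.8-fold on the HPD (6.44 ± 0.63, adjusted p = 5.7e-05). Veh livers held between 1 and 86 counts of Cyp2b10, so that these folds rest on low Veh levels, and the log2 value stayed between 7.11 and 8.32 on the NPD and between 4.86 and 7.04 on the HPD over 24 alternative analyses. The value of 4.86 came with Veh HPD replicate 4, where Cyp2b10 was at 38.7 CPM.

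Cyp2b9 and Cyp2b13, the neighbours of Cyp2b10, are expressed mainly in female liver. Cyp2b9 had 0 to 1 counts in the Veh livers and 0 to 6 in the Cort livers. Cyp2b13 had no count in 14 of the 15 libraries and 3 counts in Cort HPD replicate 3. A count of 0 allows up to 3 counts, so the files do not show a level of Cyp2b13 in either treatment. The last 300 bases of the longest coding transcript of Cyp2b10, where the reads of these libraries fall, were 87% identical to Cyp2b9 over 270 aligned bases. How reads that fit both genes were counted is not given in the sources used here.

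The 3 Cyp3a genes rose together on both diets. Cyp3a11, the main drug-oxidizing Cyp3a enzyme of mouse liver, had a mean of 690.1 ± 115 CPM (SD, n = 4) in Veh NPD and 1859 ± 541 in Cort NPD (2.69-fold, log2 1.43 ± 0.38, adjusted p = 0.0262). On the HPD it was 367 ± 129 CPM (n = 3) in Veh and 1489 ± 1006 in Cort (4.06-fold, 2.02 ± 0.44, adjusted p = 0.00994). The Cort HPD livers ranged from 762 to 2978 CPM, and without the highest of them, replicate 1, the HPD value was 1.43 (adjusted p = 0.00375). The call on the NPD was lost without any of the Veh NPD livers or without Cort NPD replicate 2 or 3, with log2 values between 1.23 and 1.48 and adjusted p between 0.0514 and 0.0755. With Veh HPD replicate 4 the calls on both diets were lost (1.43, adjusted p = 0.0633, and 1.48, adjusted p = 0.0532). In Veh NPD livers Cyp3a13 was at 194, 156, 123 and 187 CPM, in Veh HPD livers at 149, 229 and 209, in Cort NPD livers at 314, 301, 342 and 306 and in Cort HPD livers at 558, 343, 359.5 and 366. Cyp3a13 was higher in all 8 Cort livers than in the 7 Veh livers, by 1.92-fold on the NPD (0.94 ± 0.18, adjusted p = 0.00132) and 2.07-fold on the HPD (1.05 ± 0.20, adjusted p = 0.00151, and 0.86 without Cort HPD replicate 1, the highest liver). Cyp3a25 rose from 281 ± 33.1 to 605 ± 74.7 CPM on the NPD (1.11 ± 0.26, adjusted p = 0.00851) and from 283 ± 111 to 701 ± 305 CPM on the HPD (1.30 ± 0.29, adjusted p = 0.00705), and the HPD value was 0.96 and still called without Cort HPD replicate 1. The end of Cyp3a11 matched the pseudogene Cyp3a63-ps at 97.5% over 119 bases and that of Cyp3a25 matched Cyp3a59 at 94.7% over 300 bases, so reads of these pairs may not be fully separated.

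The 7 Cyp2c genes, which lie along 1 cluster on chromosome 19 and whose products oxidize drugs and fatty acids, moved in different directions. Cyp2c29 and Cyp2c39, neighbours in the order of the members, rose on both diets. Levels of Cyp2c29 were 237, 289.7, 422 and 491 CPM in Veh NPD, 249, 325 and 329 in Veh HPD, 689, 1153, 799 and 1566 in Cort NPD and 895, 700.4, 551 and 607 in Cort HPD. On each diet the Cort livers were above the Veh livers, by 2.93-fold on the NPD (1.55 ± 0.26, adjusted p = 4.9e-04) and 2.28-fold on the HPD (1.19 ± 0.28, adjusted p = 0.0104). Without Veh HPD replicate 1 the HPD call was lost (1.07, adjusted p = 0.0732). The livers held Cyp2c39 at 0, 0.106, 0.519 and 0.338 CPM in Veh NPD, 0.669, 1.47 and 0.27 in Veh HPD, 3.08, 8.62, 3.63 and 5.16 in Cort NPD and 6.1, 3.95, 6.12 and 3.41 in Cort HPD. Cyp2c39 was thus low throughout, and its log2 fold change was 4.35 ± 0.58, adjusted p = 3.7e-05 on the NPD and 2.65 ± 0.53, adjusted p = 0.00315 on the HPD. Veh libraries held 0 to 17 of its counts and Cort libraries 40 to 100.

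Cyp2c70, which makes muricholic acids from other bile acids in the mouse, fell on the NPD. Cyp2c70 lay at 485, 409.6, 439.8 and 439 CPM in the Veh NPD livers, at 492, 352 and 547 in Veh HPD, at 194, 112, 198 and 156 in Cort NPD and at 327, 239.5, 370.4 and 309 in Cort HPD. The Cort NPD livers were below all other livers, at 0.374 times the Veh NPD level (log2 -1.42 ± 0.19, adjusted p = 1.7e-05). On the HPD the groups overlapped and Cyp2c70 was not called (-0.57 ± 0.20, adjusted p = 0.0668). The difference between the diets in the Cort response was not called (0.85 ± 0.27, adjusted p = 0.209), while under Cort the HPD livers were above the NPD livers, as described with the diet comparisons. Cyp2c50 was lower with Cort on the NPD, at 350.3 ± 58.1 CPM against 545 ± 112 (-0.64 ± 0.21, adjusted p = 0.045). That call was lost in 8 of 15 fits that left out 1 library (Veh NPD replicates 1, 2 and 4, Veh HPD replicate 2, Cort NPD replicates 1 to 3, or Cort HPD replicate 4), with values between -0.70 and -0.48, and with Veh HPD replicate 4 included (adjusted p = 0.549). Cyp2c50 was not called on the HPD, at 321 ± 121 CPM against 358 ± 47.6. Cyp2c37, Cyp2c54 and Cyp2c55 were not called with Cort on either diet. Cyp2c37 had group means between 48.5 and 106 CPM, Cyp2c54 between 111 and 164 CPM and Cyp2c55 between 0.363 and 1.38 CPM. The ends of Cyp2c37 and Cyp2c50 were 93.7% identical over 300 bases, Cyp2c54 and Cyp2c50 92.8% over 278 bases, and Cyp2c39 and Cyp2c38 91.4% over 302 aligned positions.

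**Figure D2:**
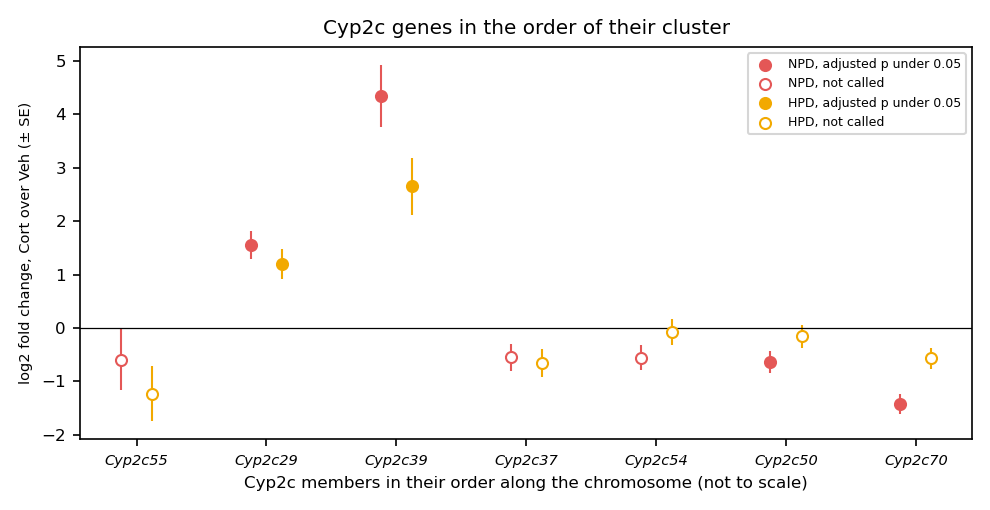
Log2 fold change of Cort over Veh (y axis, bars are the standard error) for the 7 Cyp2c members in their order along the chromosome (x axis, not to scale). Filled points had an adjusted p under 0.05: Cyp2c29 and Cyp2c39 lie above 0 on both diets, and Cyp2c50 and Cyp2c70 below 0 on the NPD.

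Cyp2e1, which oxidizes ethanol and other small molecules and had the highest mean level of the members in Veh NPD livers, fell on both diets. In Veh NPD livers Cyp2e1 was at 1189.6, 1629.7, 1645 and 1525 CPM, in Veh HPD livers at 1209, 1452 and 1752, in Cort NPD livers at 1162, 932, 765 and 820.3 and in Cort HPD livers at 655, 578, 669.9 and 968. Each Cort liver was below each Veh liver of its diet, by 0.616 times on the NPD (-0.70 ± 0.18, adjusted p = 0.0139) and 0.486 times on the HPD (-1.04 ± 0.20, adjusted p = 0.0016). The NPD call was just lost without Cort NPD replicate 3 (-0.64, adjusted p = 0.0522). With Veh HPD replicate 4, where Cyp2e1 was at 177 CPM, both calls were lost (-0.70, adjusted p = 0.375, and -0.67, adjusted p = 0.362). Cyp1a2, an enzyme that oxidizes caffeine, fell on the HPD, from 366 ± 118 to 119 ± 42.9 CPM (-1.62 ± 0.43, adjusted p = 0.0338). That call was lost without any 1 of Veh HPD replicates 1 and 3 or Cort HPD replicates 1 to 3, with values between -1.72 and -1.37. On the NPD Cyp1a2 was at 345 ± 59.2 CPM in Veh and 149 ± 96.4 in Cort and was not called (-1.21 ± 0.41, adjusted p = 0.0723), although the groups did not overlap. Without Cort NPD replicate 1, the highest Cort liver at 284 CPM, it was called (-1.73, adjusted p = 0.00276). Cyp1a1, the inducible partner of Cyp1a2, had 0 to 8 counts in 14 of the 15 libraries and 60 in Cort NPD replicate 1. Both Cyp1a2 and Cyp2e1 are known from zonation studies to be made mainly near the central vein. A summed level of 12 other genes of pericentral hepatocytes lay between 3408 and 4075 CPM in the Veh livers and between 2379 and 3249.8 CPM in the Cort livers, with no gene at 0. Of these 12 genes, 3 fell and 1 rose on the NPD (median log2 -0.08), and 1 fell on the HPD (median -0.0). The lower sum thus does not stand for each of the 12 genes. Among 12 genes of periportal hepatocytes, 2 rose and 1 fell on the NPD (median 0.07), and 3 rose on the HPD (median -0.07). In RNA of whole tissue, fewer cells of a type cannot be told apart from less RNA per cell, and the part of zonation in the fall of Cyp1a2 and Cyp2e1 was not tested.

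Of the remaining P450s, only Cyp2d10 was called with Cort, on the HPD (365 ± 44.8 CPM in Veh, 510.3 ± 36.7 in Cort, 0.48 ± 0.15, adjusted p = 0.0496), and the call was kept in only 1 of 15 fits that left out 1 library (that without Veh HPD replicate 3), with values between 0.42 and 0.51 where it was lost. Cyp2d9, a male-predominant enzyme, Cyp2d22 and Cyp2d26 were not called, nor were Cyp2a5, which oxidizes coumarin, Cyp2f2, which acts on naphthalene, and Cyp4f14, a fatty acid hydroxylase. Their group means ran from 766 to 1098 CPM for Cyp2d9, from 67.6 to 91.4 for Cyp2d22, from 366 to 416 for Cyp2d26, from 66.5 to 139 for Cyp2a5, from 902 to 1216 for Cyp2f2 and from 126 to 178 for Cyp4f14. On the HPD the Cort livers were below the Veh livers for Cyp4f14, with no overlap (-0.50 ± 0.16, adjusted p = 0.0564). Under Cort, Cyp2a5 was 1.92 times as high on the HPD as on the NPD, with overlapping groups (0.94 ± 0.35, adjusted p = 0.141). The ends of the Cyp2d members aligned to between 16 and 21 other genes, so their counts may mix with those of relatives. The end of Cyp2e1 aligned to at least 433 other genes (the search listed a limited number of transcripts), the closest being Rrm2b at 89.8% over 216 bases, and that of Cyp3a13 to at least 194.

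**Figure D3:**
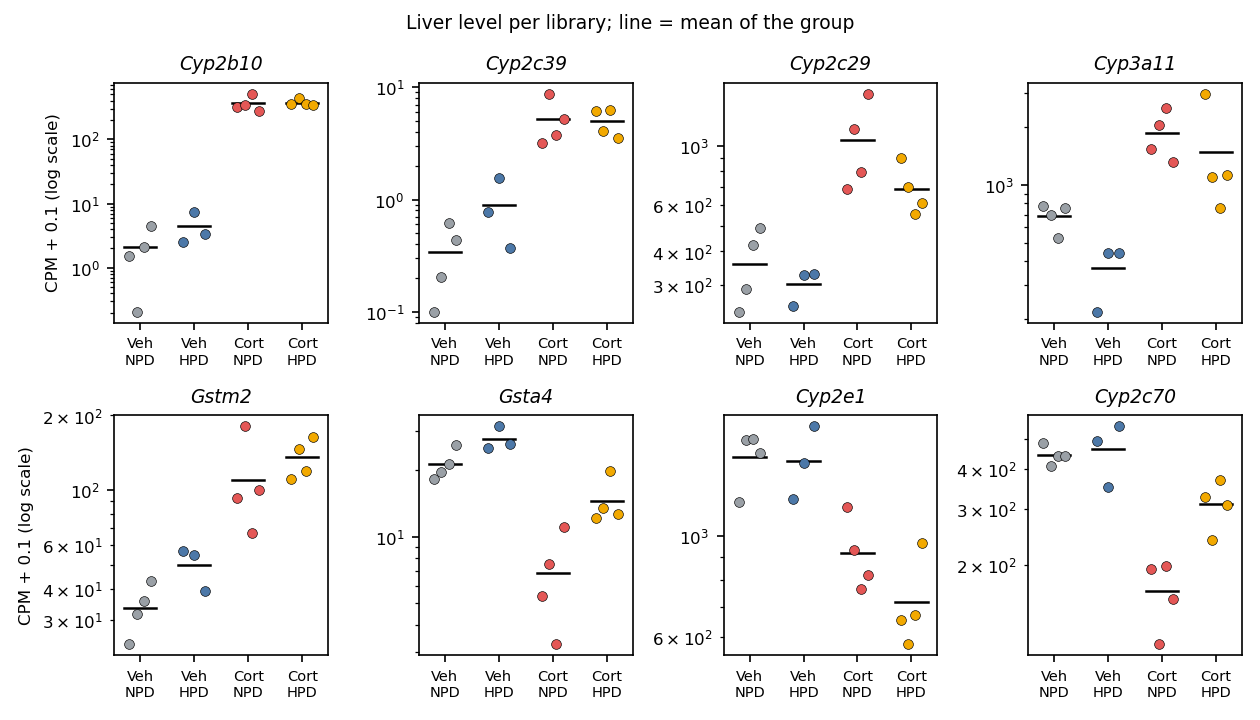
CPM plus 0.1 on log axes (y) in each liver of the 4 groups (x) for 8 members. Points are libraries and lines are group means. The Cort livers lie above the Veh livers of their diet for Cyp2b10, Cyp2c39, Cyp2c29, Cyp3a11 and Gstm2 and below them for Gsta4 and Cyp2e1, while Cyp2c70 is lowest in Cort NPD.

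Of the 7 glutathione S-transferases, 2 rose and 1 fell with Cort on the NPD, and 4 rose and 1 fell on the HPD. The mu class genes Gstm2 and Gstm3 rose on both diets. Levels of Gstm2 were 23.8, 31.5, 35.7 and 42.8 CPM in Veh NPD, 56.5, 54.4 and 39 in Veh HPD, 92.4, 181, 67.3 and 100.1 in Cort NPD and 111, 147, 119 and 164 in Cort HPD. Each Cort liver was above the Veh livers of its diet, by 3.29-fold on the NPD (1.72 ± 0.26, adjusted p = 2.1e-04) and 2.71-fold on the HPD (1.44 ± 0.28, adjusted p = 0.00303). Gstm3 rose from 13.4 ± 3.74 to 67.7 ± 52 CPM on the NPD (2.34 ± 0.49, adjusted p = 0.00823) and from 17.8 ± 5.84 to 92 ± 12.6 on the HPD (2.37 ± 0.54, adjusted p = 0.0164). Within Cort NPD, Gstm3 was at 29.5, 137, 26.4 and 77.6 CPM in replicates 1 to 4. The HPD call of Gstm3 was lost without Veh HPD replicate 2 or 3 (2.15 to 2.39, adjusted p 0.0569 to 0.069). With Veh HPD replicate 4, where Gstm3 was at 205 CPM, its log2 value was 0.54 (adjusted p = 0.718) on the HPD and 2.34 (adjusted p = 0.116) on the NPD. Gstm1, the most abundant mu class member, was not called with Cort on either diet.

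The alpha class genes differed from each other. Gsta4, which conjugates products of lipid peroxidation such as 4-hydroxynonenal, fell on both diets. The livers held Gsta4 at 18.1, 19.4, 21.1 and 25.8 CPM in Veh NPD, 25, 31.4 and 26.1 in Veh HPD, 5.31, 7.41, 3.17 and 11 in Cort NPD and 12, 13.3, 19.7 and 12.6 in Cort HPD. The Cort livers were below the Veh livers of their diet, by 0.321 times on the NPD (-1.64 ± 0.27, adjusted p = 3.2e-04) and 0.525 times on the HPD (-0.93 ± 0.27, adjusted p = 0.0331). The HPD call was lost in 6 of 15 fits that left out 1 library (any Veh HPD liver, or Cort HPD replicate 1, 2 or 4), with values between -1.01 and -0.81. Gsta2 rose on the HPD. Gsta2 lay at 7.5, 6.58, 9.17 and 17.8 CPM in the Veh NPD livers, at 14.2, 34.5 and 22.3 in Veh HPD, at 20.8, 25.6, 10.1 and 20.7 in Cort NPD and at 73.1, 70.3, 100.2 and 68.6 in Cort HPD. In Cort HPD all 4 livers were above all others. The rise with Cort was 3.32-fold on the HPD (1.73 ± 0.38, adjusted p = 0.0104), and on the NPD the groups overlapped (0.90 ± 0.35, adjusted p = 0.114). Without Veh HPD replicate 3 the HPD call was just lost (1.69, adjusted p = 0.0523), and with Veh HPD replicate 4, at 98.5 CPM, the value was 0.90 (adjusted p = 0.284). The end of Gsta2 was 97.3% identical to Gm10639 over 300 bases, so its counts may include reads of that gene. Gsta3 was the most abundant transferase, with 1178 ± 340 CPM in Veh NPD and 1689 ± 239 in Cort NPD, where it was not called (0.52 ± 0.20, adjusted p = 0.0922). On the HPD it rose from 1211 ± 151 to 1969 ± 479 CPM (0.70 ± 0.22, adjusted p = 0.0438), a call lost without any Veh HPD liver or without Veh NPD replicate 3, Cort NPD replicate 2 or Cort HPD replicate 1 or 3 (0.57 to 0.79). Gstp1, the pi class member, had group means between 35 and 52.3 CPM and was not called. Its end was 100% identical to Gstp2 over 300 bases, so its counts cannot be assigned to Gstp1 alone.

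None of the 5 UDP-glucuronosyltransferases was called with Cort on the NPD by edgeR, DESeq2 or limma voom, with 1 (Ugt2b34) at an unadjusted p under 0.05 by edgeR, and Ugt2b35 rose on the HPD. In Veh NPD livers Ugt2b35 was at 65.2, 64.2, 62.9 and 72 CPM, in Veh HPD livers at 55.8, 49.5 and 80.2, in Cort NPD livers at 48.8, 48.3, 56.8 and 70.9 and in Cort HPD livers at 180.5, 158, 165 and 125. Every Cort HPD liver was above every other liver, and the Cort NPD livers overlapped with both Veh groups. The Cort response was 2.53-fold on the HPD (log2 1.34 ± 0.18, adjusted p = 6.5e-05) and 0.853-fold on the NPD (-0.23 ± 0.17, adjusted p = 0.403). The test of the difference between these responses, the interaction of diet and Cort, called Ugt2b35 (1.58 ± 0.25, adjusted p = 0.012) and no other member, against 0.113% of all genes (0.0565% above 0 and 0.0565% below). This was 1 of 14 genes called for the interaction. The interaction of Ugt2b35 stayed between 1.46 and 1.81 with adjusted p up to 0.0452 when any 1 library was left out. With Veh HPD replicate 4, where Ugt2b35 was at 128 CPM, it was 1.25 (adjusted p = 0.182) and no member was called. The last 300 bases of Ugt2b35 aligned to no other gene over 100 bases or more. Ugt2b35 is the only Ugt2b member here on the plus strand of chromosome 5 (start 87000860), and the other 4 lie on the minus strand within the same cluster.

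Ugt2b1 had the highest SD within a group among the Ugt2b members (403 CPM in Cort NPD). Its values per liver are given because of that spread, a choice made after they were seen. Its levels were 917, 786, 894 and 895 CPM in Veh NPD, 715, 572 and 979 in Veh HPD, 1147, 314, 835 and 343 in Cort NPD and 434, 276, 259 and 339 in Cort HPD. Cort NPD replicates 1 and 3 lay with the Veh livers, and replicates 2 and 4 with the Cort HPD livers. Ugt2b1 was not called on the NPD (-0.40 ± 0.35, adjusted p = 0.506) or on the HPD (-1.21 ± 0.37, adjusted p = 0.0552), where the groups did not overlap. A summed level of 12 male-predominant liver genes, which include Cyp2d9 and Gstp1 and had none at 0, was 11656, 3790.2, 10422 and 3277 CPM in Cort NPD replicates 1 to 4, between 3222 and 3831 in Cort HPD, between 7933 and 13523 in Veh NPD and between 3945 and 7334 in Veh HPD. Of these 12 genes, 4 fell and 0 rose on the NPD and 5 fell and 0 rose on the HPD. The part of these genes in the level of Ugt2b1 was not tested. Ugt2b5, Ugt2b34 and Ugt2b36 were not called with Cort, with group means from 404 to 697, from 259.8 to 371 and from 426 to 679 CPM. The highest means of Ugt2b5 and Ugt2b36, in Cort HPD, hold replicate 1 at 1200.5 and 1142 CPM, where the other 3 livers were at 486 to 555 and 479 to 578 CPM.

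Por rose with Cort on the NPD. Levels of Por were 39, 94.7, 66.1 and 85.2 CPM in Veh NPD, 60.5, 122 and 119.8 in Veh HPD, 233, 154, 237 and 103 in Cort NPD and 112, 137, 102 and 111 in Cort HPD. The Cort NPD livers were above the Veh NPD livers by 2.55-fold (log2 1.35 ± 0.31, adjusted p = 0.0087), and the call was kept in all 24 alternative analyses. On the HPD the groups overlapped, with the value 0.20 ± 0.33, adjusted p = 0.758, which was -0.07 without Veh HPD replicate 1 and -0.02 when scaled by library totals. The interaction was not called (-1.15 ± 0.44, adjusted p = 0.319), so the responses on the diets are not shown to differ. The end of Por aligned to no other gene.

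Of the receptors, Nr1i3 rose with Cort on both diets. The livers held Nr1i3 at 38.3, 56.9, 53.2 and 44.1 CPM in Veh NPD, 20.7, 26.2 and 28.1 in Veh HPD, 90.3, 85.2, 62.6 and 49.3 in Cort NPD and 59.9, 42.9, 64.4 and 48.8 in Cort HPD. The rise was 2.16-fold on the HPD (1.11 ± 0.21, adjusted p = 0.00151), where the groups did not overlap, and the call was kept in all 24 alternatives. On the NPD it was 1.49-fold (0.58 ± 0.19, adjusted p = 0.046) with overlapping groups, and the call was lost in 14 of 24 alternatives, among them the RLE factors, library totals, limma voom, Veh HPD replicate 4 included (adjusted p = 0.245), and any 1 Veh NPD liver left out. It was also lost without Veh HPD replicate 2, Cort NPD replicates 1 to 3 or Cort HPD replicate 4, with values between 0.45 and 0.66. Nr1i2 lay at 67.7, 77.2, 73.8 and 96.5 CPM in the Veh NPD livers, at 42.5, 84 and 73.3 in Veh HPD, at 79.2, 65.2, 59.3 and 62.3 in Cort NPD and at 52, 45.1, 55.1 and 50.6 in Cort HPD. Nr1i2 was not called with Cort on the NPD (-0.24 ± 0.18, adjusted p = 0.406) or on the HPD (-0.39 ± 0.19, adjusted p = 0.205). It was lower on the HPD when scaled by library totals (-0.62, adjusted p = 0.0243) or without Veh HPD replicate 1 (-0.64, adjusted p = 0.0292). In Veh NPD livers Ahr was at 6.55, 8.8, 10.9 and 12.8 CPM, in Veh HPD livers at 8.19, 12.4 and 7.29, in Cort NPD livers at 11.2, 10.3, 9.75 and 12.8 and in Cort HPD livers at 9.23, 6.45, 9.1 and 10.5. The groups overlapped for Ahr in each comparison, and its adjusted p was between 0.411 and 0.946 over the 5 comparisons.

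**Figure D4:**
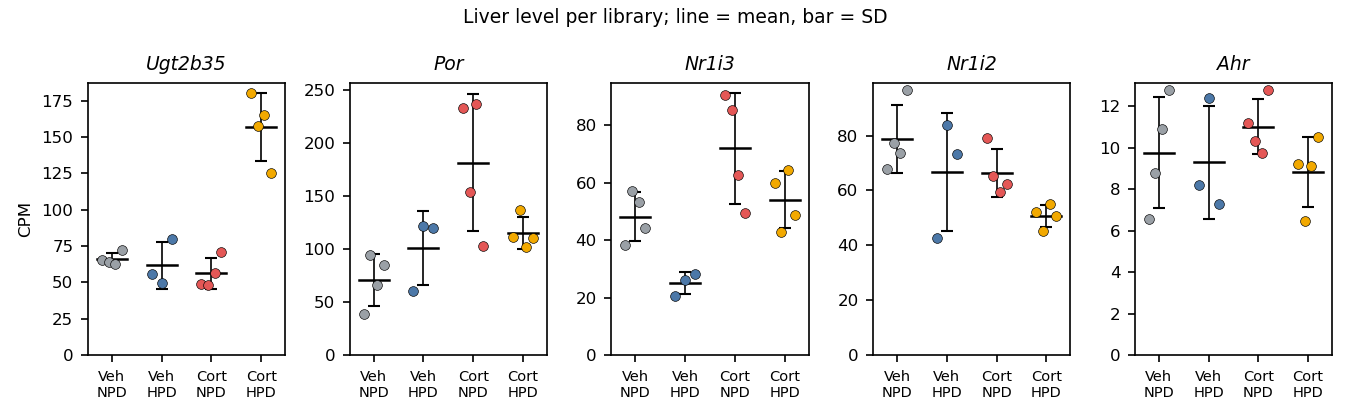
CPM (y, from 0) in each liver of the 4 groups (x) for Ugt2b35, Por and the receptors. Points are libraries, lines are means and bars are the SD. Ugt2b35 is highest in the 4 Cort HPD livers, Por in Cort NPD, and Nr1i3 is lowest in the 3 Veh HPD livers at 20.7 to 28.1 CPM.

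Under Veh the edgeR test called no change with the HPD for any of these genes. None of the 36 members was called, against 0.169% of all genes (0.105% higher and 0.0646% lower). Of the 36, 9 had an unadjusted p under 0.05, beside 1165 of all 12391 genes. DESeq2 called 2, Nr1i3 (lower) and Gsta2 (higher), beside 113 of all genes, and limma voom none, beside 14. Nr1i3 came closest, at 25 ± 3.84 CPM on the HPD and 48.1 ± 8.46 on the NPD, with no overlap between the groups (-0.95 ± 0.21, adjusted p = 0.0799). The groups did not overlap for 7 members, against 9.46% of all genes. Among them Cyp3a11 was at 367 ± 129 CPM on the HPD and 690.1 ± 115 on the NPD (-0.91 ± 0.42, adjusted p = 0.521), and Cyp2c50 at 358 ± 47.6 and 545 ± 112 CPM (-0.61 ± 0.23, adjusted p = 0.355). The others were Cyp2c55, Cyp2d10, Cyp2d22 and Gstm1. The median log2 difference of the members was 0.02, beside 0.00 for all genes.

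Under Cort the HPD livers had more of several of the conjugating enzymes among the members than the NPD livers. Of the 36 members, 6 were called and all 6 were higher on the HPD, against 5.88% of all genes (3.08% higher and 2.8% lower). They were Gsta2, Gsta4, Gstm1, Ugt2b5, Ugt2b35 and the P450 Cyp2c70. The median log2 difference of the members was 0.04, and that of all genes -0.01. These comparisons use the Cort groups of the comparisons above, so their values are not independent of them. With library totals, which moved the median of all genes by -0.18, 4 members were higher and 5 lower (Cyp2c29, Cyp2c37, Cyp2d9, Ugt2b1 and Nr1i2). Of all 12391 genes, 221 were then higher and 730 lower. Gsta2 was 4.06-fold higher on the HPD (2.02 ± 0.35, adjusted p = 0.00396) and Ugt2b35 2.79-fold (1.48 ± 0.17, adjusted p = 2.2e-05), each with no overlap between the groups. The Gsta2 call was lost when all 16 livers were fitted (2.02, adjusted p = 0.0551). Cyp2c70 was 1.89-fold higher (0.92 ± 0.18, adjusted p = 0.00442) and Gsta4 2.13-fold (1.09 ± 0.26, adjusted p = 0.0195). The interaction was called for neither (Cyp2c70 0.85 ± 0.27, adjusted p = 0.209, Gsta4 0.71 ± 0.38, adjusted p = 0.469), so their Cort responses are not shown to differ between the diets. For Gsta4 the call was lost without Cort NPD replicate 1 or Cort HPD replicate 3 (0.90 to 0.99, adjusted p 0.0601 to 0.0642). Levels of Gstm1 were 389, 477, 519.7 and 588 CPM in Veh NPD, 661, 691 and 629.9 in Veh HPD, 412, 750.4, 238 and 499.8 in Cort NPD and 790.2, 944, 879.7 and 771 in Cort HPD. For Gstm1 the Cort HPD livers were above the Cort NPD livers by 1.78-fold (0.83 ± 0.23, adjusted p = 0.0362). This call was lost without any Cort HPD liver or without Cort NPD replicate 1, 3 or 4 (0.62 to 0.88, adjusted p up to 0.0923). The livers held Ugt2b5 at 512, 604, 437 and 592 CPM in Veh NPD, 418, 483 and 478 in Veh HPD, 536, 345, 374 and 360.3 in Cort NPD and 1200.5, 545, 555 and 486 in Cort HPD. Ugt2b5 was 1.73-fold higher (0.79 ± 0.23, adjusted p = 0.0495) with overlapping groups. Cort HPD replicate 1 was the highest, and without it the value was 0.39 (adjusted p = 0.165). The call was lost in 17 of 24 alternatives, among them library totals, limma voom, the replicate block, all 16 livers and 11 of the 15 fits that left out 1 library, and kept with RLE factors, DESeq2, no filter, or without Veh NPD replicate 3, Cort NPD replicate 1 or Cort HPD replicate 2 or 4.

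**Figure D5:**
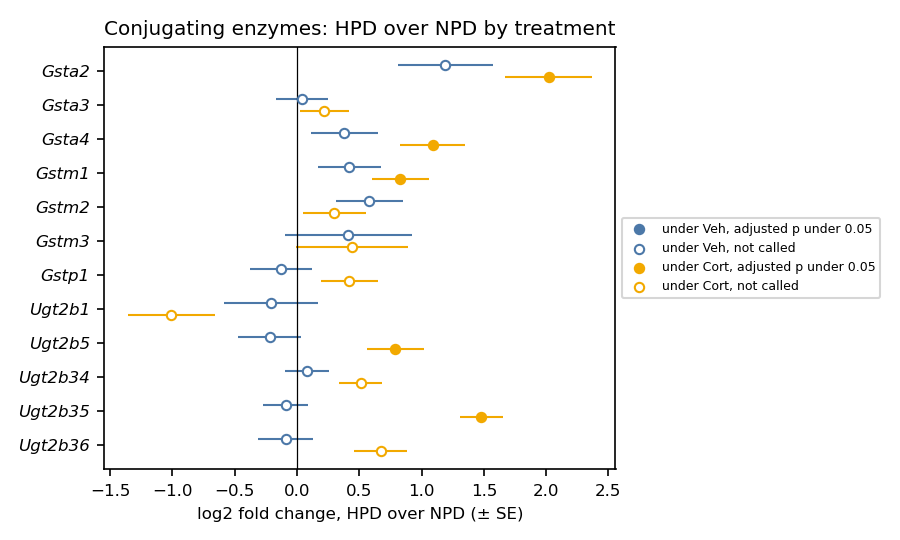
Log2 fold change of HPD over NPD (x axis, bars are the standard error) for the 12 conjugating enzymes, under Veh (blue) and under Cort (yellow). Filled points had an adjusted p under 0.05: none under Veh, and Gsta2, Gsta4, Gstm1, Ugt2b5 and Ugt2b35 under Cort.

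Other genes of drug metabolism were taken from lists written with general knowledge and with earlier results of these data known. The lists held 159 genes in all, of which 132 were tested. With Cort 23 rose and 24 fell on the NPD (35.6% of those tested), and 23 rose and 26 fell on the HPD (37.1%), beside 12.6% and 9.89% of all genes. Among those that rose on both diets were the flavin monooxygenase Fmo5 (log2 1.92 ± 0.15, adjusted p = 1.2e-08 on the NPD and 1.69 ± 0.17, adjusted p = 5.4e-07 on the HPD) and the carbonyl reductase Cbr1 (1.67 ± 0.14, adjusted p = 5.1e-08 and 1.71 ± 0.16, adjusted p = 3.2e-07). When all 16 livers were fitted, the HPD value of Cbr1 was 0.70 and no longer called. The P450 Cyp2c23, an arachidonic acid epoxygenase, fell on both diets (-2.71 ± 0.26, adjusted p = 1.5e-06 and -3.33 ± 0.28, adjusted p = 3.9e-07). The aldehyde oxidase Aox3 (-4.01 ± 0.39, adjusted p = 1.3e-05) and Cyp2u1 (-1.62 ± 0.22, adjusted p = 4.9e-05) were next on the NPD. On the HPD they were the carboxylesterase Ces3a (-1.94 ± 0.24, adjusted p = 2.7e-05) and the anion transporter Slc22a7 (-2.96 ± 0.42, adjusted p = 9.6e-05). By list, 15 of 27 tested oxidizing and hydrolysing enzymes were called on the NPD and 16 on the HPD. In the same order, 5 and 6 of 9 sulfotransferases, 4 and 4 of 7 methyl- and acetyltransferases and 8 and 5 of 16 transporters were called. So were 8 and 7 of 19 other P450s of families 1 to 3, and 2 and 3 of 7 other UDP-glucuronosyltransferases. On each diet 2 of 14 other glutathione S-transferases, 2 of 11 genes of electron transfer and heme supply and 0 of 3 other 4f P450s were called. Of 19 receptor partners and other regulators, 1 and 4 were called. Under Veh the HPD was called for Gstt3 (higher, 1.27 ± 0.24, adjusted p = 0.0474) and Cyp2d40 (lower, -1.05 ± 0.21, adjusted p = 0.0482), calls that were lost in 12 and 13 of 15 fits that left out 1 library. Under Cort it was called for 4 higher and 12 lower genes (12.1% of those tested, beside 5.88% of all genes). The interaction was called for 0 by edgeR, with 11 of the 132 at an unadjusted p under 0.05, beside 1496 of all 12391 genes. DESeq2 called 4 for the interaction, beside 130 of all genes. Among the genes higher on the HPD under Cort, the smallest p were those of Nat2 (1.08 ± 0.25, adjusted p = 0.0142), Cyp2c68 (0.72 ± 0.17, adjusted p = 0.0156) and Gstt2 (0.69 ± 0.19, adjusted p = 0.0345). The call of Gstt2 was lost in 8 of 24 alternatives (5 of 15 with 1 library left out, library totals, all 16 livers, and only the groups compared) and that of Cyp2c68 without Cort NPD replicate 3. Without Cort HPD replicate 1 Nat2 was at 0.68 and still called. Among the lower they were those of Slc22a7 (-3.51 ± 0.40, adjusted p = 2.2e-05), Cyp2d40 (-1.53 ± 0.20, adjusted p = 8.3e-05) and Nat8 (-1.41 ± 0.21, adjusted p = 3.4e-04). Fitting all 16 livers lost the calls of Cyp2d40 and Nat8 under Cort and that of Ces3a with Cort on the HPD. By list, the HPD under Cort was called for 1 of 14 other glutathione S-transferases (higher) and 0 of 7 other UDP-glucuronosyltransferases. It was called for 1 of 9 sulfotransferases (lower). Few calls in these lists thus matched those of the conjugating members. The median log2 difference was 0.48 for the 14 other glutathione S-transferases and 0.44 for the 7 members. Of these, 8 and 3 had an unadjusted p under 0.05, beside 2644 of all 12391 genes. For UDP-glucuronosyltransferases the medians were 0.38 (7 others) and 0.67 (5 members), with 0 and 5 under 0.05. Both families thus had medians above 0 among others and members alike.

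Summed levels of other gene lists moved with the treatment. A list of 12 female-predominant liver genes, which holds Cyp2b9 and Cyp2b13, was at 2.2 to 14.8 CPM in the Veh livers and 445 to 1274 CPM in the Cort livers, with 7 to 11 of its genes at 0 in a Veh library and 6 to 7 in a Cort library. Of its genes only 3 were tested, and 2 of them rose with Cort on each diet. The sulfotransferase Sult1e1 was at 4.52 ± 3.58 CPM in Veh NPD and 585 ± 156 in Cort NPD, so the sum does not stand for each of the 12 genes. The 10 genes of Kupffer cells and macrophages summed to 348 to 480.2 CPM in the Veh livers and 157 to 349 in the Cort livers, with none at 0. Of these, 8 fell on the NPD and 4 on the HPD. Lymphocyte genes were at 3.01 to 7.19 CPM in the Veh livers and at 0.0756 to 1.15 in the Cort livers, with up to 7 of 8 genes at 0. Endothelial genes (8, none at 0) summed to 142 to 165 CPM in Cort HPD, below all other livers (173 to 266), with 3 lower with Cort on the HPD, 2 lower for the HPD under Cort and 1 higher with Cort on the NPD. Stellate cell genes (8, none at 0) were at 233 to 346 CPM in Cort HPD and 306 to 488 in the others, with 2 lower with Cort on the HPD, 1 lower for the HPD under Cort and 1 higher with Cort on the NPD. The part of these lists in the changes of the members was not tested. Hepatocyte genes were at 149685 to 256436 CPM in Cort HPD and at 75842 to 128028 in the other groups. Of these 9 genes, 1 rose and 2 fell with Cort on the NPD (median log2 0.02), and 3 rose on the HPD (median 0.1). For the HPD under Cort 3 were higher (median 0.39), so the sum does not stand for each of the 9 genes.

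Most of these genes were nearly silent in the epididymal fat (eWAT) of the same series, where 28 of the 39 had group means under 1 CPM and 11 did not. Cyp2e1 was the most abundant there as well, with group means of 1515 ± 556 CPM in Veh NPD, 1719 ± 490 in Veh HPD, 2969 ± 1002 in Cort NPD and 2623 ± 206 in Cort HPD (SD, n = 4). Its mean level was thus higher in the Cort groups of eWAT, while it was lower in those of liver. Cyp2b10 was at 1.48 ± 0.226, 1.27 ± 0.863, 6.38 ± 3.67 and 6.32 ± 2.83 CPM in these groups, and Gsta3 at 184 ± 14.1, 195 ± 116, 579 ± 59.5 and 549 ± 46.9 CPM. Por lay between 287 and 508 CPM over the 16 eWAT libraries, above the highest liver library (237 CPM). Gstm1 (406 to 727 CPM), Gstm2 (108 to 203), Cyp2d22 (17.6 to 74), Cyp2f2 (3.37 to 148), Gsta4 (11.1 to 44), Gstp1 (2.31 to 9.52) and Ahr (0.445 to 11.6) were the others with a group mean of 1 CPM or more. The eWAT libraries were scaled with their own TMM factors, and these levels were not tested.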

How the data were processed

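RNA of liver and eWAT was made into QuantSeq 3′ libraries, 32 in all, and the table deposited by the authors holds unnormalized read counts, 1 row for each Ensembl gene. Per the submitters' processing notes the build was GRCm38 (mm10), and R (version 4.0.3) and limma were used. The aligner, counting program and handling of duplicates are not given in the sources used here. The 39 members and all gene lists were chosen with earlier results of these data known. Of 47643 genes, 47224 had a symbol in the reference table.

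Counts of 15 liver libraries were fitted with edgeR (version 4.0.16, R 4.3.3) in 1 model of 4 groups. Genes were kept by filterByExpr (minimum count 10, minimum total 15), which left 12391. TMM factors, robust quasi-likelihood fits and Benjamini-Hochberg adjustment over all genes tested were used, with calls at an adjusted p under 0.05. Alternatives were DESeq2 (version 1.42.0), limma voom (version 3.58.1) with and without sample weights, other scalings, no filter, all 16 livers, only the groups compared, a replicate block, and each library left out. The fit was tested on simulated data. A count of 0 was taken to allow up to 3 counts, for counting error only. All members were named. Values per liver were given for the 6 with the smallest p among those called in a comparison, for a called interaction, and for Por and the receptors. Of the other genes of the pathway, up to 3 per direction with the smallest p were named. A gene that this rule would name is not reported here.

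Livers with the same replicate number did not deviate together (21 pairs, r between -0.131 and 0.161, 3 over 0.1), so the numbers were not used to pair samples. The paper states that mice were group housed and that the studies needed multiple cohorts. Nothing says that the replicates of a group came from separate cages or cohorts, so a shared cage cannot be told apart from the treatment. The p-values set the difference between groups against the spread between these samples within a group. Replicates of a group differed by more than sampling noise in every pair. Upstream sequences were taken from RefSeq, and the last 300 bases of transcripts were compared with GENCODE transcripts by BLAST (version 2.17.0).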

Additional observations from a re-analysis of the deposited data

Results flagged for a closer look

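Among 115 groups of 4 livers, 16 had 1 liver far from the other 3 by Dixon's test. About 1 in 20 (5.75) would be flagged by chance if the groups were independent and the values normally spread. Groups of different genes share livers, so they are not independent. A few counts in 1 liver beside zeros in the others, as for Cyp2b9 and Cyp2b13, are always flagged. In Cort HPD replicate 1 this applied to Cyp3a11 (2978 CPM, others 762 to 1122), Cyp3a13 (558, others 343 to 366), Cyp2d10 (565, others 488 to 497), Ugt2b5 (1200.5, others 486 to 555) and Ugt2b36 (1142, others 479 to 578). This library also had the lowest TMM factor (0.754). In Cort HPD replicate 3 it applied to Gsta2 (100.2 CPM, others 68.6 to 73.1), Gsta4 (19.7, others 12 to 13.3) and Cyp2b13 (0.229, others 0), and in replicate 2 to Cyp2b10 (439, others 338 to 355). In Cort NPD replicate 1 Cyp1a1 was at 4.61 CPM (others 0 to 0.227), Cyp4f14 at 167 (others 132 to 137) and Ugt2b5 at 536 (others 345 to 374). In Cort NPD replicate 2 Cyp2c55 was at 0.69 CPM (others 0.227 to 0.304). In Veh NPD, Cyp1a2 was at 434 CPM in replicate 3 (others 309.7 to 319), and in replicate 4 Cyp2c50 was at 713 (others 484 to 499.6) and Cyp2b9 at 0.0845 (others 0).

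The Cort response of Ugt2b35 differed between the diets, with an interaction of 1.58 on the log2 scale (adjusted p = 0.012, edgeR).

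Veh HPD replicate 4, which no comparison used, was above all 15 other livers for 5 members. Cyp2b9 was at 13.3 CPM (others up to 0.364), Cyp2c55 at 1.83 (up to 1.76), Gsta4 at 41.3 (up to 31.4), Gstm1 at 1832 (up to 944) and Gstm3 at 205 (up to 137). The members below all 15 others included Cyp2c54 at 1.17 CPM (others from 76.2), Cyp2c37 at 5.24 (from 34.7), Cyp2c50 at 23.3 (from 228), Cyp2e1 at 177 (from 578) and Nr1i3 at 8.04 (from 20.7).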

How the results depend on the processing

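Of 37 calls of a member in a comparison, 17 were kept in all 24 alternatives, 20 were lost in at least 1 and none changed direction. Including Veh HPD replicate 4 lost 14 calls, the replicate block 5, limma voom 2 and DESeq2 0. With all 16 livers 9 members were called with Cort on the NPD, 3 for the HPD under Cort and 0 for the interaction (998, 371 and 1 of all genes). For the HPD under Veh, DESeq2 called 2 (113 of all genes). No filter, the replicate block and only the groups compared called 1 each there (56, 27 and 20 of all genes). For the HPD under Cort, DESeq2 called 10 and only the groups compared 3 (1075 and 559 of all genes). With the replicate block 13 members were called with Cort on the NPD, 17 on the HPD and 6 for the HPD under Cort (1459, 1003 and 644 of all genes). The cause of these changes was not tested.

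Leaving out 1 library gave 11 to 16 members with Cort on the NPD, 11 to 16 on the HPD, 0 to 0 for the HPD under Veh, 3 to 7 under Cort (3 without Cort HPD replicate 3) and 1 to 1 for the interaction. Over all genes these fits called, in the same order, 1078 to 1963, 714 to 1222, 5 to 40, 356 to 757 and 2 to 39. The median of the members was -0.03 with Cort on the HPD, -0.12 for the HPD under Cort and -0.11 for the interaction with library totals, -0.06 for the interaction with limma voom and sample weights, and -0.16 for the HPD under Veh with all 16 livers. It ranged with 1 library left out from -0.04 to 0.14 with Cort on the NPD, 0.17 to 0.31 on the HPD, -0.09 to 0.07 for the HPD under Veh, -0.04 to 0.13 under Cort and -0.03 to 0.22 for the interaction.

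Of the other genes of the pathway, all 16 livers called 25 with Cort on the HPD, 0 for the HPD under Veh and 4 under Cort. For the HPD under Veh, library totals and the replicate block called 1, DESeq2 6, and limma voom with sample weights and no filter 4. Sample weights called 26 for the HPD under Cort, and DESeq2 4 and no filter 2 for the interaction. Leaving out 1 library gave 38 to 51 and 28 to 50 with Cort on the NPD and HPD (28 without Veh HPD replicate 1), 0 to 4 for the HPD under Veh, 8 to 19 under Cort (8 and 9 without Cort NPD replicates 3 and 1) and 0 to 0 for the interaction.

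Uncalled values that changed sign were Por with Cort on the HPD (-0.02 with library totals, and -0.07 to 0.37 with 1 library left out, the lowest without Veh HPD replicate 1) and Tat there (-0.75 to 0.11 with 1 library left out, the highest without Veh HPD replicate 2). Depth limits Cyp1a1, Cyp2b9 and Cyp2b13, which were near 0, and Cyp2c39 and Cyp2c55, which had few counts under Veh.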

Other observations

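Some gene lists that no comparison of the members rests on also differed between the livers. Genes of the small intestine list summed to 279.5 to 757 CPM in the Veh livers, 2745 to 4628 in Cort NPD and 2034 to 2395 in Cort HPD, with 4 to 6 genes at 0 in each library. Only 2 of these 8 genes were tested, and 1 was called higher with Cort on each diet, so the sum does not show tissue of the intestine. Red blood cell genes summed to 5274 to 7626 CPM in Cort HPD and 1357 to 3544 in the other groups. Adipocyte genes were at 71.9 to 122 CPM under Veh and 144 to 337 under Cort. Of 6 adipocyte genes tested, 2 were called higher with Cort on the NPD (median log2 0.41) and 1 on the HPD (median 0.02). Skeletal muscle genes reached 556 CPM in Cort NPD replicate 3, and exocrine pancreas genes 120 CPM in Veh HPD replicate 1. None of these sums was tested against the members.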
